A study of Mus musculus with 4 samples.

Results

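The CC and CXC chemokine ligands are small secreted proteins that attract leukocytes, and their genes were described here in RNA-seq of mouse bone marrow. Every gene whose name is Ccl or Cxcl followed by digits and at most 1 letter was taken, except Cxcl12, which gave 36 of the 55401 genes in the transcript tables. Of these, 24 were CC ligands and 12 were CXC ligands. All mice were male WT C57/B6 mice, 8 weeks old at the start, and were made obese with a high-fat diet (HFD) for 6 weeks. The Ob group stayed on HFD without exercise. The Ob + Exe group also stayed on HFD and ran on a treadmill at moderate intensity for 1 h per day, 6 days per week, over 12 weeks. Each group had 9 mice, and 2 libraries of each group were sequenced from marrow spun out of the tibia. Both groups were therefore obese, and no lean group is part of the comparison. The labels number the libraries but do not say how they relate to the mice, so the p-values measure the spread between these libraries only.

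Chemokines bind receptors of the G protein-coupled family on leukocytes, and cells crawl toward the higher concentration. CC and CXC ligands are named for the spacing of the first cysteines of the protein, and 1 ligand often binds several receptors. In bone marrow, ligand and receptor pairs help to hold immature cells in place, to release neutrophils and monocytes into blood, and to bring lymphocytes back. Many ligands are low at rest and are induced by microbial products, interleukin 1, tumor necrosis factor or interferon. Others are made at a steady level by myeloid, stromal or epithelial cells.

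The labels name bone marrow as tissue, with mesenchymal stem cells and fibroblast in the fields for line and type of cell. The transcripts were those of whole marrow. The summed level of 5 erythroid markers was 41130 to 64980 FPKM and that of 10 neutrophil markers was 27990 to 66020 FPKM, against 107 to 175 FPKM for 10 markers of mesenchymal stroma and fibroblasts. FPKM relates the fragments of a transcript to its length and to the depth of the library, here further divided by a size factor per library, so levels of different genes can be compared. The libraries held 8702 to 9952 Mb of aligned bases, or 44310505 to 53038186 read equivalents on annotated transcripts (coverage times length divided by the read length of 150 bases). The libraries stood apart in their neutrophil RNA, with a marker sum of 66020 FPKM in Ob + Exe 2 and 27990 FPKM in Ob 2. In bulk marrow, fewer cells of a type and less RNA per cell cannot be told apart.

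A few ligands carried most of the RNA of these 36 genes, and none of them passed the thresholds between Ob and Ob + Exe. Ccl6 and Ccl9, myeloid ligands of Ccr1, were the highest, followed by Ccl5. Of the 36 genes, 19 had a mean of at least 0.1 FPKM over the 4 libraries and were tested, of which 12 reached a mean of 1 FPKM. Transcripts of 14 ligands were above 0 in every library. The number of ligands above 0 was 24 in Ob 1, 21 in Ob 2, 19 in Ob + Exe 1 and 21 in Ob + Exe 2, and the number of all genes above 0 was likewise highest in Ob 1 (23309) and lowest in Ob + Exe 1 (17752).

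The call required both an unadjusted limma p under 0.05 and a log2 fold change of over 1 in either direction, the thresholds stated in the study's methods. Across all 18596 genes tested, 696 (3.74%) were called, of which 186 (1.0%) were higher and 510 (2.74%) were lower in Ob + Exe. The smallest limma adjusted p over all these genes was 0.738, so no gene passed an adjusted threshold. Of the 19 tested ligands, 0 were called and 0 had an unadjusted p under 0.05, and limma voom on read equivalents also called 0. Their limma adjusted p ran from 0.959 to 0.988. Point estimates were positive for 11 ligands and negative for 8, with a median log2 fold change of 0.19, against -0.02 over all genes tested. That median was -0.09 without Ob 1, 0.49 under quantile normalization and 0.48 for the highest transcript only. Groups did not overlap for 7 of the 19 ligands (36.8%), 4 of them higher in Ob + Exe (Ccl9, Ccl4, Ccl27a and Cxcl13) and 3 lower (Ccl3, Cxcl5 and Ccl19). Over all genes tested, groups did not overlap for 32.6%, with 14.3% higher and 18.3% lower, so the share among the ligands was near the background. The count of 0 rested on all 4 libraries. It rose when any 1 library was left out, which leaves a single library in 1 group. The count over all genes rose in each of these fits too, and the sizes of the rises were not compared. Without Ob + Exe 2, the log2 difference was 1.27 for Ccl27a, 1.51 for Cxcl9 and -1.22 for Ccl3. It was 2.98 for Ccl8 and -2.22 for Cxcl2, which were both under 1 FPKM in every library. With no minimum level 2 of 29 ligands were called (Cxcl1 higher and Ccl19 lower), beside 1001 genes in all. That fit held more genes than the 18596, since 23309 were above 0 in Ob 1 alone, and its share over all genes was not computed. Without the intensity trend in limma 2 of 19 were called (Cxcl13 higher and Ccl19 lower), beside 1060 of the 18596 genes.

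**Figure D1:**
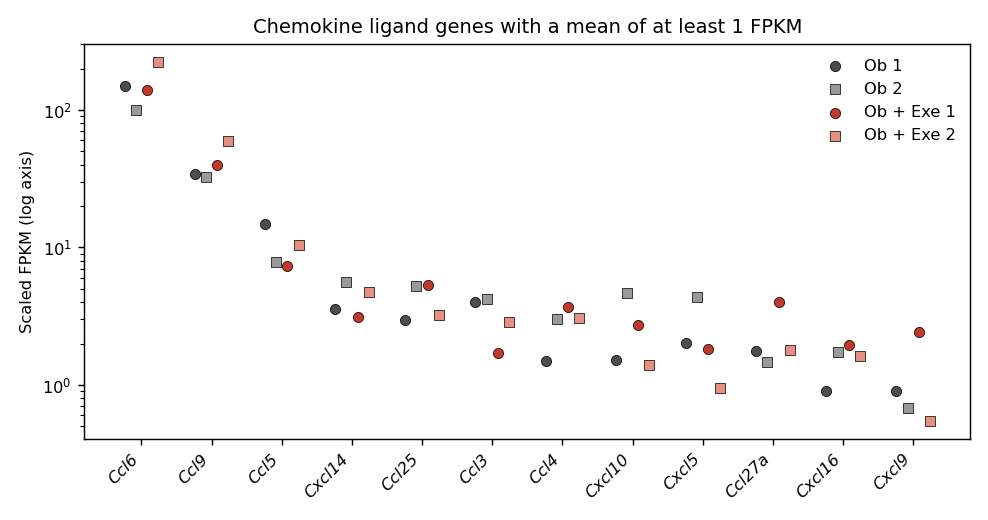
Level of each chemokine ligand gene with a mean of at least 1 FPKM, as scaled FPKM on a log axis, with 1 point per library (2 Ob and 2 Ob + Exe libraries). Ccl6 lay between 99.5 and 223 FPKM and Ccl9 between 32.3 and 59.4 FPKM, above the other ligands in every library.

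**Figure D2:**
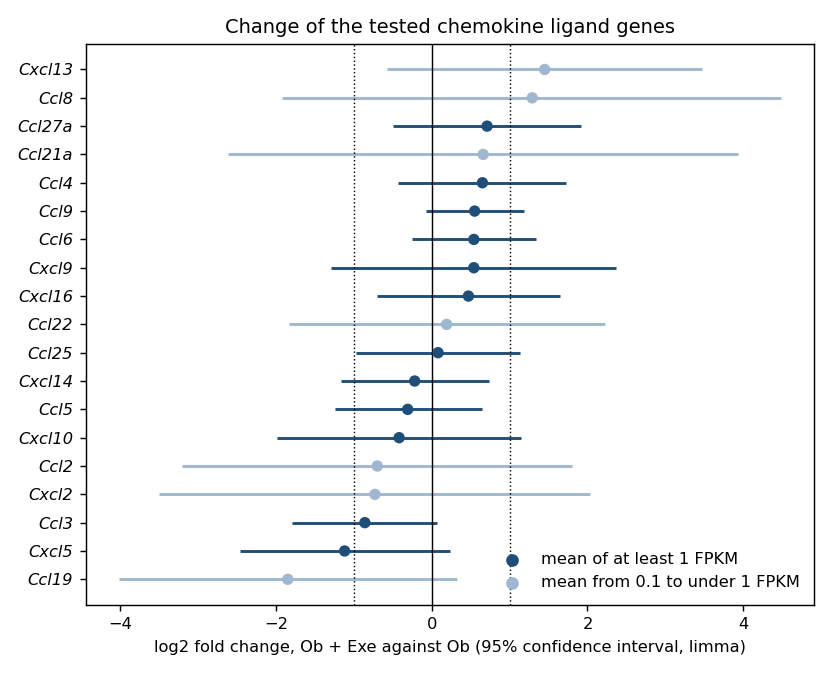
Log2 fold change of Ob + Exe against Ob for the 19 tested ligands, with 95% confidence intervals from limma. Dotted lines mark a log2 fold change of 1 in size, and every interval includes 0. For Ccl19, which was listed at 0 in both Ob + Exe libraries, the position depends on the pseudocount.

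Summed over all 36 genes, ligand RNA was 219 FPKM in Ob 1, 172 FPKM in Ob 2, 216 FPKM in Ob + Exe 1 and 316 FPKM in Ob + Exe 2. The highest library was an Ob + Exe library, but the other Ob + Exe library lay between those of Ob (two-sided exact permutation test, p = 0.667). With 2 libraries against 2 this test cannot give a p under 0.333. Ccl6 alone made up 57.8% of the sum in Ob 2 and 70.6% in Ob + Exe 2, the lowest and the highest share. Ccl6 and Ccl9 together made up 76.6% to 89.4%. Without them the sum was 36.0 and 40.4 FPKM in Ob and 36.5 and 33.6 FPKM in Ob + Exe, so the spread of the total lay in these 2 genes.

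Ccl6 and Ccl9 are made by myeloid cells without an inducing signal and attract cells through Ccr1. They are neighbours on chromosome 11, both on the minus strand. Ccl6 (ENSMUSG00000018927.3, chr11:83587882-83593087, GRCm38) was at 148 FPKM in Ob 1, 99.5 FPKM in Ob 2, 139.6 FPKM in Ob + Exe 1 and 223 FPKM in Ob + Exe 2, from 8763 to 16790 read equivalents. It ranked 322 among all genes by mean level. The groups overlapped, since Ob + Exe 1 lay between the Ob libraries. The means were 124 ± 34.5 FPKM in Ob and 181 ± 59.2 FPKM in Ob + Exe (SD, n = 2 each). On the log2 scale Ccl6 differed by 0.54 (SE 0.32, 95% interval -0.26 to 1.34; limma adjusted p = 0.959), and the difference was 0.2 without Ob + Exe 2 and 0.88 without Ob + Exe 1.

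Ccl9 (ENSMUSG00000019122.8, chr11:83572919-83578636) was at 34.3 and 32.3 FPKM in Ob and at 39.9 and 59.4 FPKM in Ob + Exe. Both Ob + Exe libraries lay above both Ob libraries, with Ob + Exe 2 well above the rest. The log2 difference was 0.55 (SE 0.26, 95% interval -0.08 to 1.18; limma adjusted p = 0.959). The estimate was between 0.26 and 0.83 when 1 library was left out. Since the groups did not overlap, leaving out 1 library could not change its sign. The ratio of Ccl6 to Ccl9 was 4.32 in Ob 1, 3.08 in Ob 2, 3.5 in Ob + Exe 1 and 3.76 in Ob + Exe 2, so the 2 Ob libraries bracketed the 2 Ob + Exe libraries.

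The order of the libraries in Ccl6, from Ob 2 over Ob + Exe 1 and Ob 1 to Ob + Exe 2, was also the order of the neutrophil marker sum, which was 27990, 36350, 49110 and 66020 FPKM in the same libraries. All 10 neutrophil markers were above 0 in every library, and 7 of them (70.0%) were highest in Ob + Exe 2 and lowest in Ob 2, against 10.8% of all genes tested. Other marker sums had the same order of the libraries. In Ob 2, Ob + Exe 1, Ob 1 and Ob + Exe 2, the 6 monocyte markers summed to 508, 523, 565 and 616 FPKM. The 5 basophil and mast cell markers summed to 141, 174, 215 and 256 FPKM in these libraries. Of the 6 monocyte markers, 1 was itself highest in Ob + Exe 2 and lowest in Ob 2. Groups did not overlap for 4 of the 6, all higher in Ob + Exe, and for 1 of the 10 neutrophil markers, also higher. Over all genes tested, groups did not overlap with Ob + Exe higher for 14.3%. Ccr1, the receptor of both ligands, was at 36.8 and 26.0 FPKM in Ob and at 37.6 and 69.2 FPKM in Ob + Exe (log2 difference 0.72, SE 0.35, limma adjusted p = 0.959). Its groups did not overlap, though Ob 1 and Ob + Exe 1 were nearly level. Ccl9 and Ccr1 both ran from Ob 2 over Ob 1 and Ob + Exe 1 to Ob + Exe 2, which was not the order of these marker sums. The part of neutrophil, monocyte or basophil and mast cell RNA in the Ccl6 and Ccl9 levels was not tested.

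**Figure D3:**
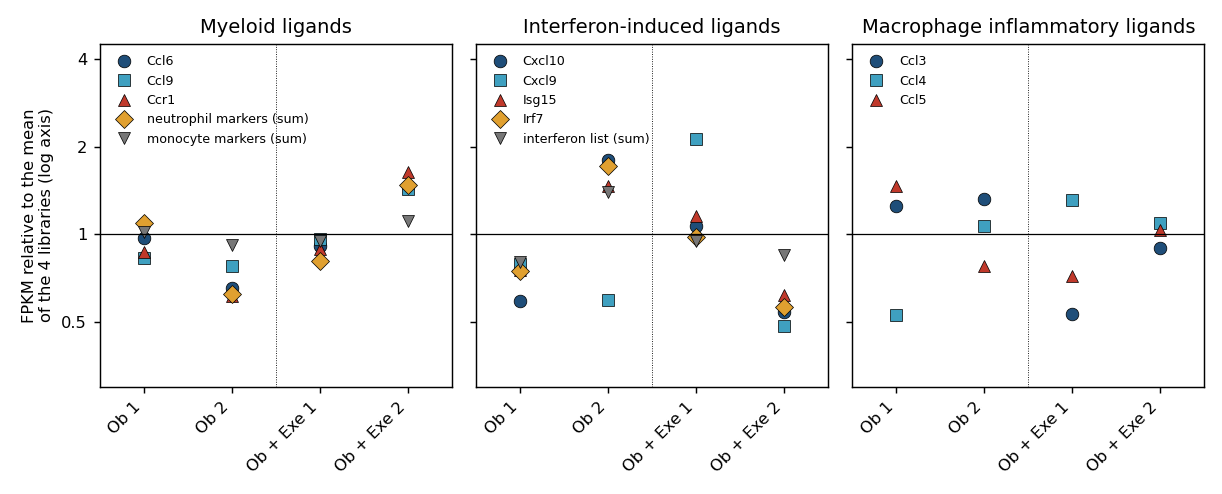
FPKM of selected ligands in each library, relative to the mean of the 4 libraries on a log axis, beside Ccr1, marker sums and interferon-response genes. Ccl6, Ccr1 and the neutrophil and monocyte marker sums were lowest in Ob 2 and highest in Ob + Exe 2. Cxcl10, Isg15 and Irf7 were highest in Ob 2 and lowest in Ob + Exe 2.

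The start regions of Ccl6 and Ccl9 share sequence, and they are printed because these genes had the most RNA of the set and lie side by side. The windows run from 250 bases before to 50 bases after the annotated start, are taken from RefSeq (GRCm38.p6) and read 5′ to 3′ on the minus strand. They are chr11:83593038-83593337 for Ccl6 and chr11:83578587-83578886 for Ccl9. Capitals mark the runs of at least 8 identical bases in the best local alignment of both windows.
Ccl6: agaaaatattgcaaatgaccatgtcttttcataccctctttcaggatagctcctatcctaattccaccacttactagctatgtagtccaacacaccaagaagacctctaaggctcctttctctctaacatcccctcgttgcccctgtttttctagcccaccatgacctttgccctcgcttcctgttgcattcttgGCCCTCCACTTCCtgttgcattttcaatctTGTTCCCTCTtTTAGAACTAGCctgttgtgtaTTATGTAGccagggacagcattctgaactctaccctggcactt
Ccl9: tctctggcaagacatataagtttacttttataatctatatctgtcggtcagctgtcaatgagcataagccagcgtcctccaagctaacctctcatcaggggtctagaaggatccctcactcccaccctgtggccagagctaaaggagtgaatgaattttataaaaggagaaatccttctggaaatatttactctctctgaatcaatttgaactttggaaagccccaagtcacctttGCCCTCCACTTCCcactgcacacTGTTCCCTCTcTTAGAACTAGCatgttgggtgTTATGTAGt
The alignment covered 67 bases, of which 58 (86.6%) were identical, with 4 runs that held 42 bases. The shared stretch lies at bases 192 to 265 of the Ccl6 window and at bases 233 to 299 of the Ccl9 window, so it sits at a different distance from each annotated start. By comparison, the Ccl6 window and that of Ccl3, another ligand of the same cluster, aligned over 12 bases.

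The macrophage inflammatory ligands Ccl3, Ccl4 and Ccl5 are released by activated macrophages, T cells and NK cells. Their summed level was 20.4 and 15.1 FPKM in Ob and 12.7 and 16.4 FPKM in Ob + Exe, and the groups overlapped. The 3 genes did not share an order of the libraries.

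Ccl3 (ENSMUSG00000000982.5, chr11:83647844-83649355, minus strand) had the smallest p of the set. It was at 3.999 and 4.23 FPKM in Ob and at 1.71 and 2.86 FPKM in Ob + Exe, from 209 and 217 against 77 and 120 read equivalents. The lower Ob library was still above the higher Ob + Exe library. Ccl3 differed by -0.86 on the log2 scale (SE 0.38, 95% interval -1.8 to 0.07; limma adjusted p = 0.959), and it ran from -1.22 to -0.51 when 1 library was left out.

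Ccl4 (ENSMUSG00000018930.3, chr11:83662584-83664683, plus strand), the neighbour of Ccl3, lay the other way. It was at 1.49 and 3.02 FPKM in Ob and at 3.71 and 3.09 FPKM in Ob + Exe, from 67 to 145 read equivalents. The groups did not overlap, but Ob 2 and Ob + Exe 2 were nearly level. This was a log2 difference of 0.65 (SE 0.44, 95% interval -0.44 to 1.73; limma adjusted p = 0.959), which was 0.16 without Ob 1 and 1.13 without Ob 2. The ratio of Ccl3 to Ccl4 was 2.69 in Ob 1, 1.40 in Ob 2, 0.461 in Ob + Exe 1 and 0.927 in Ob + Exe 2, above 1 in both Ob libraries and below 1 in both Ob + Exe libraries. This ratio was chosen after the values were seen, and its exact permutation p of 0.333 (two-sided) is the smallest that this design can give.

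Ccl5 (ENSMUSG00000035042.2, chr11:83525778-83530518, minus strand) was at 14.9 and 7.88 FPKM in Ob and at 7.27 and 10.5 FPKM in Ob + Exe. Ob 1 stood above the other libraries, and the groups overlapped (log2 difference -0.31, SE 0.38; limma adjusted p = 0.97). Without Ob 1 the difference was 0.15. The summed level of 7 T and NK cell markers was 64.9 and 37.1 FPKM in Ob and 67.2 and 46.8 FPKM in Ob + Exe, and the part of those cells in the Ccl5 level was not tested.

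These 5 genes, Ccl5, Ccl9, Ccl6, Ccl3 and Ccl4, form a cluster of 138.9 kb on chromosome 11 (83525778 to 83664683). All 5 were tested, with 3 positive and 2 negative point estimates. A second chromosome 11 cluster of 270.1 kb (82035571 to 82305690) holds Ccl2, Ccl7, Ccl11, Ccl12, Ccl8 and Ccl1, and only Ccl2 and Ccl8 of these reached the level for testing. Neighbouring clusters of CC ligand genes thus stood at quite different levels in marrow.

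The ligands listed here under Ccr2 (Ccl2, Ccl7, Ccl8 and Ccl12) were close to the detection limit. Of these, Ccl2 and Ccl7 draw monocytes out of marrow. Ccl2 was at 0.399 and 0.114 FPKM in Ob and was listed at 0 in Ob + Exe 1 and at 0.303 FPKM in Ob + Exe 2. Ccl8 was at 0.947 FPKM in Ob + Exe 1 and at 0.0758 FPKM in Ob 1, and was listed at 0 in the other libraries, so a single library made its positive estimate. Ccl7 and Ccl12 were not tested. Ccr2 itself was well covered, at 54.8 and 52.7 FPKM in Ob and 58.5 and 64.7 FPKM in Ob + Exe (log2 difference 0.20, SE 0.19; limma adjusted p = 0.959).

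The CXC ligands of Cxcr2 attract neutrophils. Of Cxcl1, Cxcl2, Cxcl3, Cxcl5 and Cxcl15, only Cxcl2 and Cxcl5 were tested, and both had negative estimates, though that of Cxcl2 turned to 0.76 without Ob + Exe 1. Summed over the 5 genes the level was 2.63 and 4.74 FPKM in Ob and 2.34 and 1.71 FPKM in Ob + Exe. The groups did not overlap, and Ob was higher, at the smallest p that the exact permutation test can give here (two-sided, p = 0.333). Cxcl5 made up most of this sum.

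Cxcl5 (ENSMUSG00000029371.7, chr5:90759360-90761624, plus strand) had the largest estimate among the ligands with a mean of at least 1 FPKM. It was at 2.02 and 4.39 FPKM in Ob and at 1.82 and 0.944 FPKM in Ob + Exe, from 223 and 489 against 183 and 96 read equivalents. The groups did not overlap, though Ob 1 and Ob + Exe 1 were close. Cxcl5 thus had a log2 difference of -1.12 (SE 0.55, 95% interval -2.47 to 0.23; limma adjusted p = 0.959), and it ran from -1.66 to -0.58 when 1 library was left out. Of the 2 annotated Cxcl5 transcripts, the 4-exon coding one was at 1.70 and 3.04 FPKM in Ob, at 1.01 FPKM in Ob + Exe 1 and listed at 0 in Ob + Exe 2. Its share of the gene was 84.2%, 69.2% and 55.5% in the first 3 libraries, and the rest was assigned to a transcript with a retained intron, at 0.319, 1.35, 0.812 and 0.944 FPKM.

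Cxcl2 was at 0.506 and 0.261 FPKM in Ob, listed at 0 in Ob + Exe 1 and at 0.690 FPKM in Ob + Exe 2. Cxcl1 was listed at 0 in both Ob libraries, at 0.256 FPKM in Ob + Exe 1 and at 0.071 FPKM in Ob + Exe 2, too low to be tested. Cxcl3 and Cxcl15 reached at most 20 and 23 read equivalents in any library. The receptor Cxcr2 was at 45.8 and 16.5 FPKM in Ob and at 20.2 and 78.6 FPKM in Ob + Exe (log2 difference 0.54, SE 0.74; limma adjusted p = 0.975). It was highest in Ob + Exe 2 and lowest in Ob 2, as the neutrophil and monocyte marker sums were.

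Cxcl9, Cxcl10 and Cxcl11 are induced by interferon and attract activated T cells and NK cells through Cxcr3. The genes lie within 44.14 kb of chromosome 5. Summed, they were at 2.41 and 5.38 FPKM in Ob and at 5.16 and 1.99 FPKM in Ob + Exe, so 1 library of each group was high and 1 was low. Cxcl11 was too low to be tested.

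Cxcl10 (ENSMUSG00000034855.13, chr5:92346638-92348889, minus strand) was at 1.51 and 4.63 FPKM in Ob and at 2.74 and 1.39 FPKM in Ob + Exe. Ob 2 was highest and Ob + Exe 2 lowest, and the groups overlapped. The log2 difference was -0.42 (SE 0.64, 95% interval -1.99 to 1.14; limma adjusted p = 0.975). Its sign depended on how the transcripts were counted. The difference was 0.16 in limma voom on read equivalents. It was 1.72 when only the transcript with the highest mean was used, which is annotated as a retained intron and not as coding.

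The Cxcl10 libraries differed in which transcript the reads were assigned to. The 4-exon coding transcript of 1094 bases held 95.5% of the gene's FPKM in Ob 2 and 26.5% in Ob 1, and was listed at 0 in both Ob + Exe libraries. The rest lay almost wholly in a transcript of 1 exon and 2230 bases, annotated as a retained intron, at 1.11 and 0.203 FPKM in Ob and 2.74 and 1.39 FPKM in Ob + Exe. Ob 2 and Ob + Exe 1 had nearly the same number of read equivalents (355 and 361) but differed in FPKM, since the transcripts differ in length. Of the exon bases of Cxcl10, 5.91% overlap Art3 on the other strand, which was at 0.117 to 0.677 FPKM. The kit named in the methods is not stated to keep the strand, so reads there cannot be assigned to either gene.

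**Figure D4:**
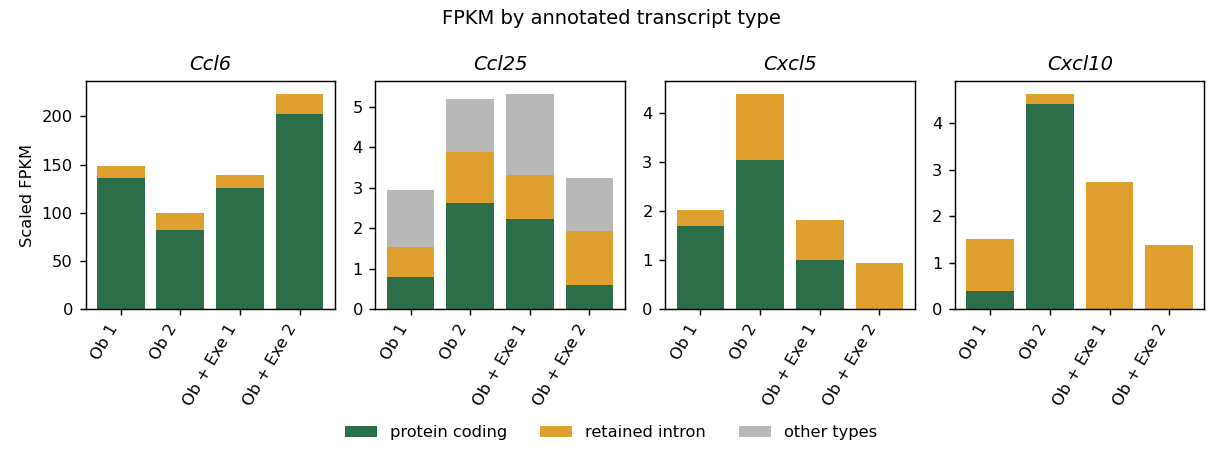
Scaled FPKM of Ccl6, Ccl25, Cxcl5 and Cxcl10 in each library, stacked by the annotated type of transcript. The protein-coding part of Ccl6 was 82.9% to 91.6% of the gene in every library, while that of Cxcl10 was 95.5% in Ob 2, 26.5% in Ob 1 and 0 in both Ob + Exe libraries.

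Cxcl9 (ENSMUSG00000029417.9, chr5:92321347-92328079, minus strand) was at 0.901 and 0.678 FPKM in Ob and at 2.42 and 0.550 FPKM in Ob + Exe. Ob + Exe 1 was high and Ob + Exe 2 was the lowest of the 4 libraries. The log2 difference was 0.54 (SE 0.74, 95% interval -1.29 to 2.37; limma adjusted p = 0.975), and it was -0.44 without Ob + Exe 1 and 1.51 without Ob + Exe 2. Nearly all Cxcl9 FPKM was in its coding transcript, at 99.7% in Ob 1 and 100% in the others.

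A list of 10 interferon-response genes was set beside these ligands. None of the 10 was called, 1 estimate was positive and 9 were negative, with a median log2 fold change of -0.27. Isg15, a ubiquitin-like protein induced by interferon, was at 67.8 and 131.6 FPKM in Ob and 103.7 and 55.3 FPKM in Ob + Exe. Irf7, a transcription factor of the interferon response, was at 24.1 and 54.9 FPKM in Ob and 31.4 and 18.1 FPKM in Ob + Exe. Both had the order of the libraries seen for the summed FPKM of Cxcl10, and 4 of the 10 genes (40.0%) were highest in Ob 2 and lowest in Ob + Exe 2, against 9.16% of all genes tested. Cxcl9 was not in that order, since its highest library was Ob + Exe 1. In read equivalents Cxcl10 was also highest in Ob + Exe 1, at 361 against 355 in Ob 2, so its order depends on the FPKM. The receptor Cxcr3 was at 2.82 and 1.56 FPKM in Ob and 2.08 and 2.54 FPKM in Ob + Exe, with overlapping groups.

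The start regions of Cxcl10 and Cxcl9 are printed because the genes are neighbours with a common receptor but had different orders of the libraries in FPKM. In read equivalents, both genes were highest in Ob + Exe 1 (361 and 413) and lowest in Ob + Exe 2 (170 and 87). They are RefSeq windows of GRCm38.p6, read 5′ to 3′ on the minus strand, at chr5:92348840-92349139 for Cxcl10 and chr5:92328030-92328329 for Cxcl9. Capitals mark matches on either strand to TATAAA (the TATA box), GGG followed by any 5 bases and CC (the kB type bound by NF-kB factors) and GAAA on both sides of any 2 bases (the ISRE type bound by interferon-activated factors).
Cxcl10: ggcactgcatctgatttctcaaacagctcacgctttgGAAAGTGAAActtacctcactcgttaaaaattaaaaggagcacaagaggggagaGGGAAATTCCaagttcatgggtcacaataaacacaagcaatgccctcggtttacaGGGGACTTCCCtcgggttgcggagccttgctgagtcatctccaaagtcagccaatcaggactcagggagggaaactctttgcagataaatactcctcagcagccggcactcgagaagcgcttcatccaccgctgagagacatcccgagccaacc
Cxcl9: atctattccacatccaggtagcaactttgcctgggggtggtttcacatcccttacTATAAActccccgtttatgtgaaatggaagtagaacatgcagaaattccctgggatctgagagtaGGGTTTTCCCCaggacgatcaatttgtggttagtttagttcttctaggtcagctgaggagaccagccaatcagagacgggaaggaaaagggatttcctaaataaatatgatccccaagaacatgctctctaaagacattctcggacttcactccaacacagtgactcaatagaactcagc
In Cxcl10 the ISRE-type match began 213 bases before the start, and the kB-type matches began 159, 104 and 103 bases before it, of which the last 2 overlap. The Cxcl9 window held TATAAA 195 bases before the start and overlapping kB-type matches 130 and 129 bases before it. No ISRE-type match was found there, which says only that these letters are not in this window. The best local alignment of both windows covered 24 bases.

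Across the set, 25 of the 36 ligands had at least 1 RefSeq window, 31 windows in all. The kB type was in 54.8% of these windows and in 50.8% of all 32851 windows, so it was common everywhere. The ISRE type was in 9.68% of the ligand windows (Ccl19, Cxcl10 and Cxcl14) and 3.44% of all windows. TATAAA was in 29.0% of the ligand windows and 13.6% of all windows, and the 3 matches in the Ccl9 window included 2 that overlap. The C/EBP type TTGCNNAA was in 22.6% against 10.8%, and the PU.1 type GAGGAA in 41.9% against 28.3%. By gene, the C/EBP type was in 5 of the 25 ligands (Ccl21a, Ccl21d, Ccl27a, Ccl27b and Cxcl13) and the PU.1 type in 10. Ccl27a and Ccl27b each gave several windows with these motifs, some of them overlapping, so the window shares count some sequence repeatedly. The Ccl6 window held none of these 5 motifs. A match is a run of letters in the window and was not tested as a binding site.

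Ligands known mainly from epithelia and barrier tissue were also present. Cxcl14, which attracts myeloid and dendritic cells (ENSMUSG00000021508.11, chr13:56288643-56296551, minus strand), was at 3.59 and 5.63 FPKM in Ob and at 3.10 and 4.77 FPKM in Ob + Exe. Replicate 2 was higher than replicate 1 in both groups, and the groups overlapped (log2 difference -0.22, SE 0.39; limma adjusted p = 0.975). The markers of mesenchymal stroma also summed higher in Ob 2 (167) and Ob + Exe 2 (175) than in Ob 1 (112) and Ob + Exe 1 (107 FPKM), as did Cxcl12, the stromal retention signal kept out of the set and part of that sum, at 92.7 and 141.8 FPKM in Ob and 88.3 and 142.0 FPKM in Ob + Exe. Their part in the Cxcl14 level was not tested.

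Ccl25 (ENSMUSG00000023235.14, chr8:4325210-4360020, plus strand) is the Ccr9 ligand that guides T cell precursors to the thymus. It was at 2.95 and 5.2 FPKM in Ob and at 5.32 and 3.24 FPKM in Ob + Exe. High and low libraries fell in both groups (log2 difference 0.08, SE 0.42, 95% interval -0.97 to 1.13; limma adjusted p = 0.988). Its reads were divided among 10 transcripts, and the coding ones held 27.0%, 50.5%, 42.1% and 18.2% of the FPKM in Ob 1, Ob 2, Ob + Exe 1 and Ob + Exe 2. Of its exon bases, 2.74% overlap Elavl1 on the other strand, which was at 16.5 to 31.0 FPKM.

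Ccl27a, a skin chemokine for Ccr10 (ENSMUSG00000073888.13, chr4:41769467-41774247, minus strand), was at 1.76 and 1.46 FPKM in Ob and at 4.01 and 1.79 FPKM in Ob + Exe. Ob + Exe 1 stood above the rest, while Ob + Exe 2 was level with Ob 1, so the groups were barely apart. The log2 difference was 0.71 (SE 0.49, 95% interval -0.5 to 1.92; limma adjusted p = 0.959), and without Ob + Exe 1 it was 0.15. Il11ra1, whose exons overlap those of Ccl27a by 8 bases on the other strand, was also highest in Ob + Exe 1, at 26.8 FPKM against 6.64 to 12.0 FPKM in the other libraries. Of the 100-base stretches of Ccl27a transcripts, 26.5% also occur in Ccl27b or other annotated genes, so its level is uncertain.

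Cxcl16, a membrane-bound ligand of Cxcr6 (ENSMUSG00000018920.11, chr11:70453983-70459984, minus strand), was at 0.907 and 1.74 FPKM in Ob and at 1.96 and 1.63 FPKM in Ob + Exe. Ob 1 was low and the other 3 libraries were close (log2 difference 0.47, SE 0.48; limma adjusted p = 0.961). Without Ob 1 the difference was 0.04. Its exons share 18.3% of their bases with Zmynd15 on the other strand, which was at most 0.351 FPKM.

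The ligands that organize lymphoid tissue were near the detection limit. Cxcl13, which attracts B cells through Cxcr5, was at 0.0370 and 0.0689 FPKM in Ob and at 0.185 and 0.508 FPKM in Ob + Exe, from 3, 5, 13 and 32 read equivalents. Both Ob + Exe libraries were higher, but the log2 difference of 1.45 on the scale with 0.1 added did not pass (limma adjusted p = 0.959). Ccl19, a Ccr7 ligand, had 21 and 7 read equivalents in Ob (0.420 and 0.149 FPKM) and was listed at 0 in both Ob + Exe libraries (limma adjusted p = 0.959), and no fold is given. Of its 100-base stretches, 39.3% also occur in other annotated genes or pseudogenes. Ccl21a, also a Ccr7 ligand, was listed at 0 in the first replicate of each group and was at 0.268 FPKM in Ob 2 and 0.814 FPKM in Ob + Exe 2, with 50.3% of its stretches shared. Ccl22, a Ccr4 ligand, was at 0.133 and 0.411 FPKM in Ob and 0.509 and 0.155 FPKM in Ob + Exe.

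The other 17 ligands were below a mean of 0.1 FPKM. Of these, 10 were above 0 in at least 1 library (Cxcl1, Cxcl3, Cxcl11, Cxcl15, Ccl7, Ccl11, Ccl12, Ccl17, Ccl24 and Ccl28), with at most 0.259 FPKM and 57 read equivalents, both for Ccl28 in Ob + Exe 1. The remaining 7 (Ccl1, Ccl20, Ccl21b, Ccl21d, Ccl26, Ccl27b and Cxcl17) were listed at 0 in all libraries. Ccl21b and Ccl27b share 100% and 97.9% of their stretches with close copies, so a value of 0 for them cannot be told apart from reads assigned to a copy.

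The receptors, the other chemokines and the induction genes that accompany these ligands were counted in the same fit. Of 24 receptor genes, 19 were tested and 0 were called, with 10 positive and 9 negative estimates and a median log2 fold change of 0.02. Cxcr4, the receptor of Cxcl12, was the highest receptor, at 159 and 153 FPKM in Ob and 134.0 and 161 FPKM in Ob + Exe. Of the 5 other chemokines (Cxcl12, Pf4, Ppbp, Xcl1 and Cx3cl1), 0 were called, and all 5 estimates were negative. The platelet chemokine Ppbp was at 213 and 113 FPKM in Ob and 134 and 48.2 FPKM in Ob + Exe (log2 difference -0.95; limma adjusted p = 0.959). The summed level of 5 megakaryocyte and platelet markers, Ppbp and Pf4 among them, was 449 and 324 FPKM in Ob and 364 and 136 FPKM in Ob + Exe.

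Among 19 genes of NF-kB and of the response to interleukin 1 and tumor necrosis factor, the signals that induce many of these ligands, 2 were called and both were higher in Ob + Exe, against 3.74% of all genes called and 1.0% called higher. Il1b, which encodes interleukin 1 beta, was at 24.1 and 25.5 FPKM in Ob and 56.9 and 69.2 FPKM in Ob + Exe, with no overlap. Its log2 difference was 1.34 (SE 0.21; limma adjusted p = 0.794). Clec4e, a pattern recognition receptor of myeloid cells, was at 11.9 and 9.92 FPKM in Ob and 16.3 and 33.9 FPKM in Ob + Exe (log2 difference 1.11, SE 0.38; limma adjusted p = 0.959). Clec4e was lowest in Ob 2 and highest in Ob + Exe 2. So were the neutrophil marker sum (27990 and 66020 FPKM) and the monocyte marker sum (508 and 616 FPKM). The part of these cells in the Clec4e level was not tested. The median of the 19 genes was 0.18, and the number called was 1 without Ob 1 or without Ob 2 and 4 without Ob + Exe 1. The classic targets of these signals among the ligands, Ccl2, Cxcl1 and Cxcl2, stayed at or below 0.690 FPKM in all 4 libraries, and Tnf was at 3.69 and 4.61 FPKM in Ob and 5.15 and 4.18 FPKM in Ob + Exe (log2 difference 0.17; limma adjusted p = 0.975).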

How the data were processed

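RNA-seq of tibial bone marrow was compared between 2 Ob and 2 Ob + Exe libraries. As the study's methods state, the authors enriched poly-A RNA, sequenced pairs of 150-base reads, trimmed them with fastp, removed rRNA reads, aligned the rest to GRCm38 with HISAT2 and quantified GENCODE vM25 transcripts with StringTie. Versions of these tools are not given in the sources used here. The authors deposited 1 table per library with the coverage (a signal that grows with depth) and FPKM values for 142604 transcripts. The authors tested counts with DESeq2. The deposited tables hold no counts, and whole reads could not be recovered, so limma replaced it.

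FPKM values were summed per gene and divided by median-of-ratios size factors (0.945 to 1.04). Genes with a mean of at least 0.1 FPKM were tested as log2(FPKM + 0.1) with limma 3.58.1 (lmFit, eBayes with trend, 2 residual and 3.79 prior degrees of freedom) in R 4.3.3, without a block. The added 0.1 understates changes of low genes. The script was tested on simulated data. Sums were compared with two-sided exact permutation tests. Python 3.11.15 with pandas 2.3.3 was used for the tables and matplotlib 3.10.9 for the figures. Every ligand with a mean of at least 1 FPKM, and any ligand called, was described in full. Lower ligands singled out for their levels were chosen after their values were seen. The members and gene lists were chosen with earlier results of these data known. Transcript types, overlaps and shared stretches came from GENCODE vM21 and start regions from RefSeq. Alternatives changed the minimum level, the pseudocount, the scaling, the model, the block, the transcripts and the libraries used.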

Additional observations from a re-analysis of the deposited data

How the results depend on the processing

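Of the recalculated log2 differences of the 12 ligands with a mean of at least 1 FPKM, leaving aside those without a library, 128 kept their direction and stayed outside the thresholds, 3 reversed and 1 passed. Dropping the intensity trend or adding a replicate block cannot change a difference in this balanced design, only its p. The direction was thus fixed in advance for those settings, which are part of the count. Without scaling the difference of Ccl25 was -0.0042, and the median over all genes shifted to -0.1. For Cxcl10 the difference was 0.16 in limma voom on read equivalents and 1.72 for the highest transcript only, a retained intron. Leaving out 1 library at a time reversed 8 differences, while 37 kept their direction and their side of the thresholds but often changed in size. The ranges were 0.2 to 0.88 for Ccl6, 0.16 to 1.13 for Ccl4, 0.04 to 0.9 for Cxcl16 and -1.66 to -0.58 for Cxcl5, and those with a reversal had ranges of -0.76 to 0.15 for Ccl5, -0.54 to 0.09 for Cxcl14, -0.32 to 0.48 for Ccl25, -1.2 to 0.35 for Cxcl10 and -0.44 to 1.51 for Cxcl9. The other 7 ligands kept their direction, and 3 differences passed the thresholds, all without Ob + Exe 2 (Ccl3 at -1.22, Ccl27a at 1.27 and Cxcl9 at 1.51). In these fits 1 group has a single library, which is assumed to vary like the other group. For Ccl9, Ccl3, Ccl4, Cxcl5 and Ccl27a the groups did not overlap, so leaving out 1 library could not reverse their direction.

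The count of called ligands, 0 in the analysis reported, was 2 with no minimum level (Cxcl1 higher 1, Ccl19 lower 1), 2 without the intensity trend (Cxcl13 higher 1, Ccl19 lower 1) and 1 to 5 without 1 library (0 to 3 higher and 0 to 2 lower). The median log2 fold change of the ligands was 0.49 under quantile normalization, 0.48 for the highest transcript only, and -0.09 to 0.35 without 1 library, lowest without Ob 1.

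Over all genes, 267 were called with a minimum of 1 FPKM (91 higher, 176 lower), 222 with a pseudocount of 1 (73 higher, 149 lower), 459 in voom (332 lower) and 1060 without the intensity trend (784 lower). With no minimum 818 were lower, and for the highest transcript only 322 were higher. Without 1 library, 744 to 1920 were called, 94 to 650 of them higher and 650 to 1270 lower. With no minimum level, 2 receptors were called, both lower (2), and 1 induction gene, which was higher (1). That fit held more genes than the 18596 of the main fit, and its share over all genes was not computed. The induction list also had 1 call, higher, without the trend and for the highest transcript only. Without 1 library, calls were 1 to 4 in the induction list (1 to 4 higher), 0 to 1 among receptors (0 to 1 higher) and 0 to 1 among the other chemokines (0 to 1 lower).

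When the replicate block was added to the fit, 742 genes and 0 ligands were called, and 18 genes had a limma adjusted p under 0.05. The labels do not tie a number to a mouse or batch, and the replicate differences of the 2 groups correlated at -0.106 over all genes tested and -0.235 over the 12409 genes with a mean of at least 1 FPKM. With crossed numbers, a pairing chosen after seeing the data, 803 genes were called, and among the ligands 1 (lower 1), Cxcl5.

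Depth limits the low ligands most, since 24 of the 36 had a mean under 1 FPKM. With 2 libraries a group the intervals stay wide, at -1.99 to 1.14 for Cxcl10 and -1.29 to 2.37 for Cxcl9 on the log2 scale.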
